A study of Mus musculus with 6 samples.

Results

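The keratin-associated proteins are small proteins that fill the space between the keratin filaments of the hair shaft. Their genes, named Krtap in the mouse, were taken as all genes whose probe set carried a single symbol starting with Krtap in the array annotation, which gave 44 of the 19938 genes measured. Each of the 44 had 1 probe set, and they fell into 21 subfamilies, named by the number after Krtap, of which 12 had 1 member. A further 15 probe sets named a Krtap gene together with other genes and were not used as members. They carried 6 Krtap symbols that had no probe set of their own, and 13 of the 44 members were also named on them. Some subfamilies are built of near-identical repeats, so a member's probe set may also take signal from its relatives. Values of neighbours within a subfamily are not independent.

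Hair follicles pass through cycles of growth, regression and rest, and the shaft is made during growth. Matrix cells at the base of the follicle move up, make the hair keratins first, and then the keratin-associated proteins, which are cross-linked to the keratins through disulfide bonds. By composition the proteins are classed as high sulfur, ultra-high sulfur or high glycine-tyrosine. In human hair, members of KRTAP5, KRTAP10, KRTAP12, KRTAP17 and KRTAP24 are known from the cuticle, the outer layer of the shaft, while high glycine-tyrosine proteins such as those of KRTAP6, KRTAP7 and KRTAP8 are known from the cortex.

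Transcripts were measured on Affymetrix arrays in back skin of inbred male BALB/c mice, an albino strain, aged 5 to 6 weeks, with no transgene or deletion named in the labels. The groups were intact skin, day 1 wounds and day 4 wounds, with 2 arrays each. Wounded mice had the back shaved and received a pair of full-thickness punch wounds of 4 mm down to the fascia, and an 8 mm punch took the wound with the skin around it, so that the wound made up 25% of the biopsy area. The labels call the replicates biological, but give neither the number of animals behind an array nor the hair cycle stage, and do not say that a replicate number links samples of different groups. The p-values therefore measure the spread between these samples, and 2 arrays a group limit the precision of every value. Median log2 intensity lay between 6.89 and 6.93 on the 6 arrays.

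The wound arrays stood apart from each other in these genes before any comparison with intact skin. On day 1, 43 of 44 members were lower on replicate 2 than on replicate 1, with a median gap of −3.35 on the log2 scale (lowest −6.07, highest 0.04). On day 4, all 44 were lower on replicate 2, with a median gap of −3.81 (lowest −6.69, highest −0.09). In intact skin 17 members were lower and 25 higher on replicate 2, with 2 equal and a median gap of 0.02. Over all 19938 genes the median gap was 0.02 on day 1 and 0.03 on day 4. On replicate 2, 37 members on day 1 and 42 on day 4 were at least 2-fold lower than on replicate 1, as were 0.562% and 0.677% of all genes. Levels are therefore given for each array.

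Regulatory sequence in front of the start site is shown for 4 members that differ in their values: Krtap24-1, with the largest mean difference on day 1, Krtap6-1, with the widest gap between the 2 arrays of day 1, Krtap6-3, which was above intact skin on 1 wound array, and Krtap17-1, a called member with a day 1 difference of −2.03. The RefSeq promoter table of build GRCm38.p6 held 40 of the 44 members. The 250 bases before each start were searched on both strands for TATAAA (the TATA box), for CTTTGA (the core that LEF and TCF factors recognise) and for TCGTAAA (a sequence of the posterior HOX factors). Each is written 5′ to 3′ on the gene's strand, with matches in capitals.
Krtap24-1, chr16:88612280-88612529, strand -: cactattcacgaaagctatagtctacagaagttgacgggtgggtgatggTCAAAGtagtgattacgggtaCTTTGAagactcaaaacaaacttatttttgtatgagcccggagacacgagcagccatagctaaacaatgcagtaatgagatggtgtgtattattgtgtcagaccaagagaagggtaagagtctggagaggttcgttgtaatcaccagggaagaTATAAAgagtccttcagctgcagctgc
Krtap6-1, chr16:89031449-89031698, strand +: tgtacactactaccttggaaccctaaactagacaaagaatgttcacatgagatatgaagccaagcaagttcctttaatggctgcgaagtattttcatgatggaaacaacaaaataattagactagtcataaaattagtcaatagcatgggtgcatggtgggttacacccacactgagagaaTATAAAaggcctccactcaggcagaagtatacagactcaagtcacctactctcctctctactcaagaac
Krtap6-3, chr16:89083774-89084023, strand +: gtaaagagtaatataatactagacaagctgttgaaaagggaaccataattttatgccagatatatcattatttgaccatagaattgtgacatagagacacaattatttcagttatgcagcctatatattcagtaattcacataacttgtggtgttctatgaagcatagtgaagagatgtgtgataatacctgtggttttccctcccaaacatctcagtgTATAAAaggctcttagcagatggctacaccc
Krtap17-1, chr11:99993995-99994244, strand -: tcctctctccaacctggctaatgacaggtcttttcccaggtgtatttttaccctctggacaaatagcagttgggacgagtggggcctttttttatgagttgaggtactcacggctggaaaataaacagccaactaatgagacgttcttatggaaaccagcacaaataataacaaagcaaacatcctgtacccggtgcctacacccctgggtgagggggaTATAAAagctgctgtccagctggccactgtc
A TATAAA match stood in 31 of the 40 member promoters (77.5%), against 12.4% of all 32851 windows in the table. CTTTGA or its reverse complement was found in 11 members (27.5%), against 13.8% of all windows, and TCGTAAA in 1 member (2.5%), against 0.478%. All 4 windows shown hold a TATAAA match, beginning 27 bases before the start in Krtap24-1, 31 in Krtap6-3 and Krtap17-1, and 69 in Krtap6-1. Of the 4, Krtap24-1 alone holds CTTTGA matches, 2 of them. These are matches of letters in a window and no measure of binding.

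Day 1 wounds were set against intact skin to describe the early state of the wounded biopsy. All 44 Krtap genes had a lower mean in day 1 wounds, and on 43 of them (97.7%) both wound arrays lay below both intact arrays, against 38.2% of all genes. No member had both wound arrays above both intact arrays, as 29% of all genes did. The median log2 difference over the members was −3.86, with a range of −5.56 to −0.26, where the median over all genes was −0.04. By limma's moderated test with Benjamini-Hochberg adjustment over all genes, 14 of 44 fell (31.8%), against 14.6% of all genes, and none rose. The 14 were all 5 members of Krtap5, both of Krtap10, Krtap12-1, Krtap14, Krtap17-1, Krtap24-1, Krtap26-1 and both of Krtap31. The day 1 arrays lay closer together on most members that passed. Their gap, replicate 1 minus replicate 2, was 0.19 to 2.57 (median 1.19), against −0.04 to 6.07 (median 4.12) for the other 30. The median log2 difference was −4.18 in the 14 and −3.73 in the 30. The test sets a difference against the spread within groups, so at like differences it favours members with narrow gaps. The narrower gaps of the 14 are thus no separate result. In bulk tissue, fewer follicle cells and less RNA per cell cannot be told apart.

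The size of the difference varied with the array. On day 1 replicate 1 the members' median log2 difference from the intact mean was −1.84, at 27.9% of the intact intensity, and 37 members were more than 2-fold lower. On day 1 replicate 2 it was −5.44, at 2.30% of the intact intensity, and 43 members were more than 2-fold lower. On that array 10 members lay under the array's lower quartile, and 1 member did on replicate 1. Signal in this range was not tested against background, so the differences on replicate 2 are approximate for those members.

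Leaving out replicate 2 of the day 1 wounds gave 3 calls among the members, where 7.41% of all genes were called lower. Leaving out either intact array also gave 3, where 6.9% to 7.32% of all genes were called lower, in fits where the lone array of a group is assumed to vary like the others. The count was 34 without both wound arrays numbered 2, against 2.5% of all genes, and 43 without both numbered 1, against 5.61% of all genes, in fits whose spread comes from the intact pair alone. It was 5 with a robust estimate of the prior, against 14.6% of all genes. Krtap5-1, Krtap10-10 and Krtap12-1 kept the day 1 call with any 1 array left out.

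**Figure D1:**
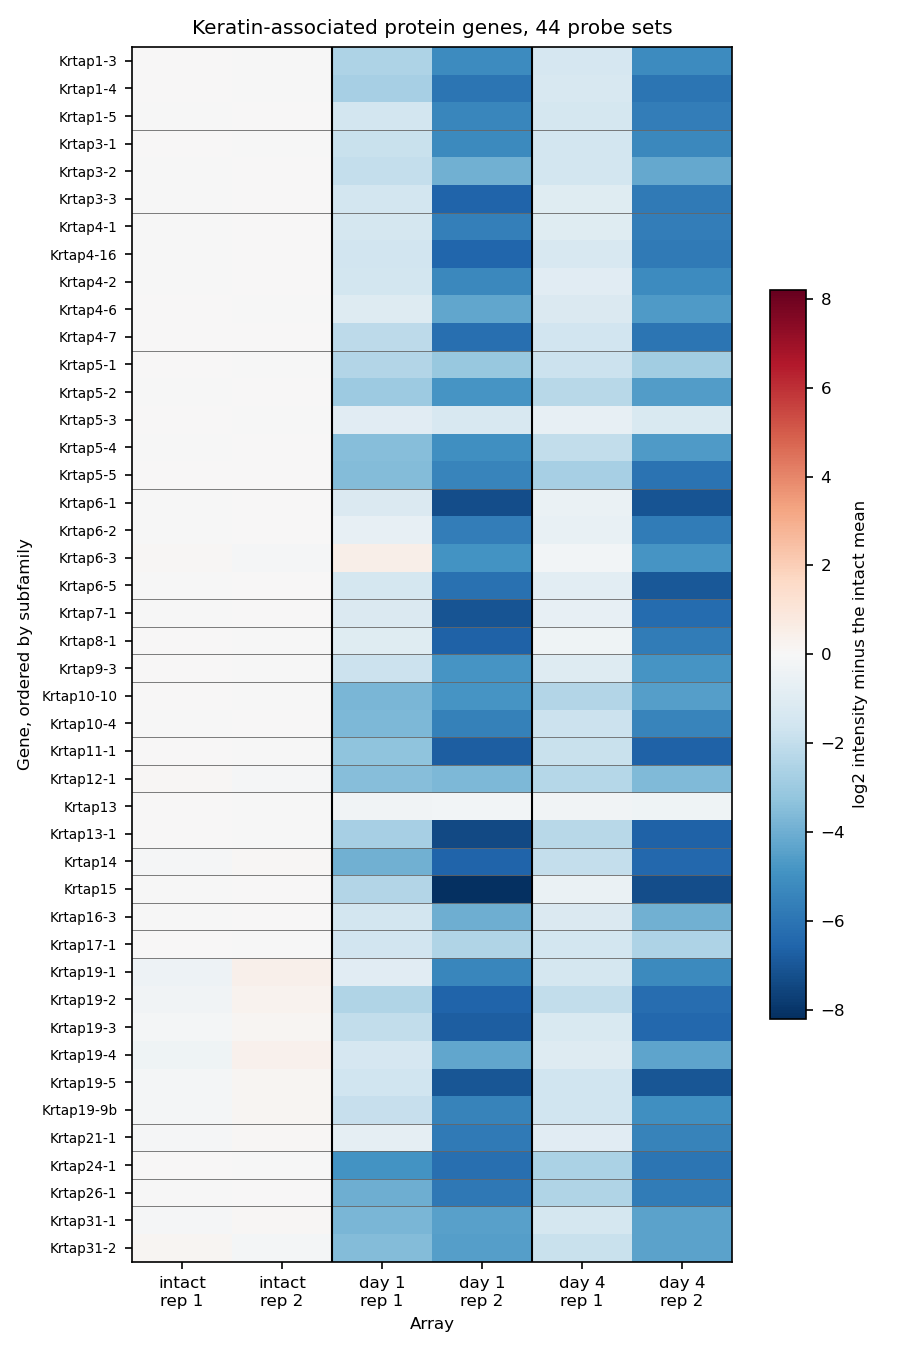
Log2 intensity minus the intact mean for the 44 Krtap genes (rows, ordered by subfamily) on the 6 arrays (columns). Colour runs from blue (lower) to red (higher), and both columns of replicate 2 wounds are darker than those of replicate 1, with medians of −5.44 against −1.84 on day 1 and −5.46 against −1.42 on day 4.

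The members known from the hair cuticle in humans lay below both intact arrays on both day 1 arrays, as did every other member but Krtap6-3. Krtap24-1, whose human counterpart is a cuticle protein of high sulfur class, had log2 intensities of 11.55 and 11.50 in intact skin, 6.61 and 5.33 in day 1 wounds and 8.93 and 5.53 in day 4 wounds. Both arrays of each wound group lay below both intact arrays, and the day 1 log2 difference was −5.56 (SE 1.02), 47.0-fold lower (limma adjusted p = 0.00847). Krtap12-1, a high sulfur gene, stood at 9.59 and 9.41 in intact skin, 6.01 and 5.82 in day 1 wounds and 7.18 and 5.86 in day 4 wounds. Its day 1 arrays lay closer together than those of any other called member, and it had the lowest adjusted p of the family on day 1 (log2 difference −3.59, SE 0.38, limma adjusted p = 0.00111).

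In Krtap10, the other subfamily of that cluster on chromosome 10, both members fell on day 1. Krtap10-10 had 11.41 and 11.38 in intact skin, 7.67 and 6.58 in day 1 wounds and 8.98 and 6.88 in day 4 wounds, a day 1 difference of −4.27 (limma adjusted p = 0.00458). Krtap10-4 had 11.60 and 11.66 in intact skin, 7.92 and 6.09 in day 1 wounds and 9.86 and 6.19 in day 4 wounds, a day 1 difference of −4.63 (limma adjusted p = 0.0259). Neither gene's wound arrays reached the intact level on either day.

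The 5 members of Krtap5, ultra-high sulfur genes on chromosome 7, all passed on both days. Krtap5-1 stood at 11.93 and 11.87 in intact skin, 9.50 and 8.77 in day 1 wounds and 10.14 and 9.02 in day 4 wounds, 6.80-fold lower on day 1 (log2 difference −2.77, SE 0.38, limma adjusted p = 0.00287). Krtap5-5 stood at 11.46 on both intact arrays, 7.91 and 6.04 in day 1 wounds and 8.74 and 5.42 in day 4 wounds, with the largest differences of the subfamily, −4.49 on day 1 and −4.38 on day 4. Krtap5-3 differed least, by −1.12 on day 1 and −0.94 on day 4, from 9.74 and 9.71 on the intact arrays. Members of 1 subfamily with shared repeats thus ranged from 2.17-fold to 22.4-fold lower on day 1.

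Krtap17-1, an ultra-high sulfur gene of the cluster on chromosome 11, had 11.95 and 11.84 in intact skin, 10.32 and 9.41 in day 1 wounds and 10.39 and 9.38 in day 4 wounds. The day 1 and day 4 wounds were at about the same level, with log2 differences of −2.03 (limma adjusted p = 0.00981) on day 1 and −2.01 (limma adjusted p = 0.0122) on day 4. Over the 10 members of subfamilies 5, 10, 12, 17 and 24 the median log2 difference from intact was −3.49 on day 1 replicate 1 and −4.84 on day 1 replicate 2, and all 10 passed on day 1 and 9 on day 4. The other 34 members had medians of −1.63 and −5.73, and 4 passed on each day. Of all genes, 14.6% were called lower on day 1 and 12.1% on day 4, and the count of 4 in 34 is near those shares. The mean differences of the 34 were not near those of all genes. Their median mean difference was −3.81 on day 1 and −3.36 on day 4, against −4.08 and −3.38 in the 10 and −0.04 and −0.03 over all genes. On day 1 the median of replicate 2 minus replicate 1 was −3.95 in the 34 and −1.19 in the 10. This grouping by site in human hair was made after the values were seen and was not tested.

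**Figure D2:**
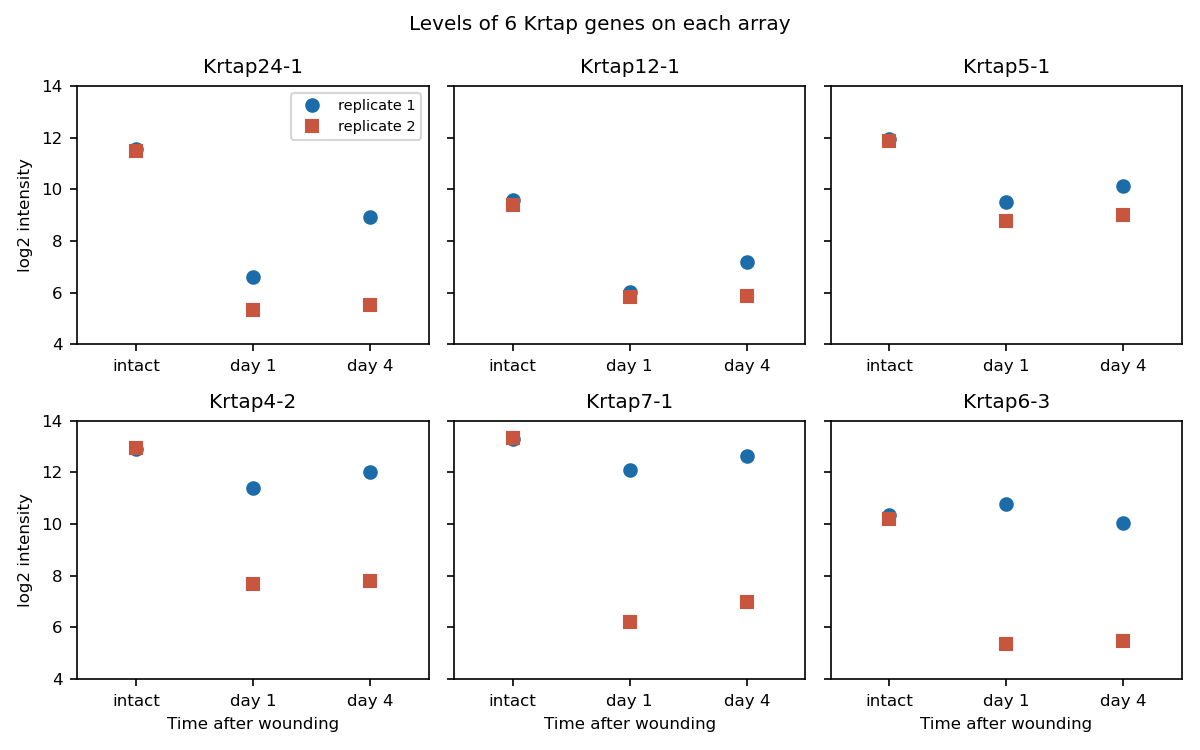
Log2 intensity of 6 Krtap genes in intact skin and in day 1 and day 4 wounds, with replicate 1 as circles and replicate 2 as squares, and 1 array per point. All 6 genes are lower on the wound arrays numbered 2 than on those numbered 1, and on day 1 the gap is 0.19 in Krtap12-1 and 5.90 in Krtap7-1.

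Of the remaining genes, Krtap14 was called on day 1. Krtap26-1 and the 2 Krtap31 genes were called on both days. Krtap26-1, a high sulfur gene, had 11.33 and 11.42 in intact skin, 7.38 and 5.49 in day 1 wounds and 8.94 and 5.64 in day 4 wounds (day 1 difference −4.94, limma adjusted p = 0.0155). Krtap31-1 had 10.80 and 11.04 in intact skin, 7.20 and 6.44 in day 1 wounds and 9.48 and 6.53 in day 4 wounds (day 1 difference −4.10, limma adjusted p = 0.0138). Krtap14, a high sulfur gene of the cluster on chromosome 16, had 12.20 and 12.33 in intact skin, 8.30 and 5.73 in day 1 wounds and 10.29 and 5.84 in day 4 wounds. It was 38.1-fold lower on day 1 (limma adjusted p = 0.0366) and did not pass on day 4 (log2 difference −4.20, limma adjusted p = 0.0766).

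The high sulfur genes Krtap15, Krtap13-1 and Krtap11-1 had mean differences as large as the called genes and did not pass. Krtap15 stood at 12.82 and 12.91 in intact skin, 10.45 and 4.71 in day 1 wounds and 12.29 and 5.60 in day 4 wounds, a day 1 difference of −5.29 with an SE of 2.46 (limma adjusted p = 0.161). On day 4 its replicate 1 array was 1.49-fold below the intact mean while replicate 2 was 154-fold below it. Krtap13-1 had 12.11 and 12.10 in intact skin, 9.37 and 4.71 in day 1 wounds and 9.85 and 5.50 in day 4 wounds. Krtap11-1 had 12.87 and 12.85 in intact skin, 9.56 and 6.12 in day 1 wounds and 11.06 and 6.20 in day 4 wounds. In each of the 3 genes the wound groups lay below intact skin without overlap.

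Subfamilies 1, 3, 4 and 9 lie together on chromosome 11 and encode sulfur-rich proteins known from the cortex. Krtap3-1 had 13.15 and 13.11 in intact skin, 11.33 and 7.92 in day 1 wounds and 11.64 and 7.84 in day 4 wounds. Krtap4-2 had 12.91 and 12.94 in intact skin, 11.41 and 7.67 in day 1 wounds and 12 and 7.80 in day 4 wounds. Krtap1-3 had 12.57 and 12.52 in intact skin, 10.04 and 7.41 in day 1 wounds and 11.15 and 7.37 in day 4 wounds. In all 3 genes both wound arrays numbered 2 were lower than those numbered 1. Krtap9-3, with 13.24 and 13.19 in intact skin, 11.48 and 8.38 in day 1 wounds and 12.14 and 8.40 in day 4 wounds, had the same order of arrays. None of the 12 members of these 4 subfamilies passed, with day 1 differences between −4.36 (Krtap1-4) and −2.65 (Krtap4-6).

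The high glycine-tyrosine genes, 13 members of Krtap6, Krtap7, Krtap8, Krtap19 and Krtap21 on chromosome 16, included the member with the widest gap between the day 1 arrays, Krtap6-1. Krtap7-1 stood at 13.29 and 13.33 in intact skin, 12.10 and 6.20 in day 1 wounds and 12.63 and 7.0 in day 4 wounds. Krtap8-1 stood at 13.31 and 13.25 in intact skin, 12.30 and 6.68 in day 1 wounds and 12.91 and 7.56 in day 4 wounds. Krtap6-1 stood at 12.23 and 12.31 in intact skin, 11.06 and 4.99 in day 1 wounds and 11.71 and 5.17 in day 4 wounds. Differences of these 3 genes from intact were −1.21 to −0.37 on the wound arrays numbered 1 and −7.28 to −5.72 on those numbered 2.

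Krtap6-3 was the single member above both intact arrays on any wound array. It had 10.37 and 10.18 in intact skin, 10.77 and 5.35 in day 1 wounds and 10.05 and 5.46 in day 4 wounds, and its day 1 difference of −2.22 had an SE of 1.99 (limma adjusted p = 0.45). Krtap21-1 had 11.43 and 11.66 in intact skin, 10.79 and 5.75 in day 1 wounds and 10.62 and 6.06 in day 4 wounds. Krtap6-5 had 12.32 and 12.37 in intact skin, 10.90 and 6.23 in day 1 wounds and 11.45 and 5.42 in day 4 wounds. For all 3 genes the wound arrays of a day were farther from each other than replicate 1 was from intact skin. None of the 13 passed on either day.

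The 6 Krtap19 genes also differed between the intact arrays. Krtap19-4 had 11.39 and 12.08 in intact skin, 10.35 and 7.50 in day 1 wounds and 10.68 and 7.38 in day 4 wounds, and Krtap19-1 had 9.52 and 10.30 in intact skin. All 6 were higher on intact replicate 2, by 0.35 (Krtap19-5) to 0.78 (Krtap19-1). Outside the subfamily, intact replicate 2 minus replicate 1 ran from −0.26 (Krtap31-2) to 0.24 (Krtap31-1). Krtap16-3, also on chromosome 16, had 8.62 and 8.74 in intact skin, 7.17 and 4.65 in day 1 wounds and 7.51 and 4.77 in day 4 wounds, a day 1 difference of −2.77. Krtap13 lay under the lower quartile on all 6 arrays, between 3.62 and 4.03, in a range not tested against background.

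**Figure D3:**
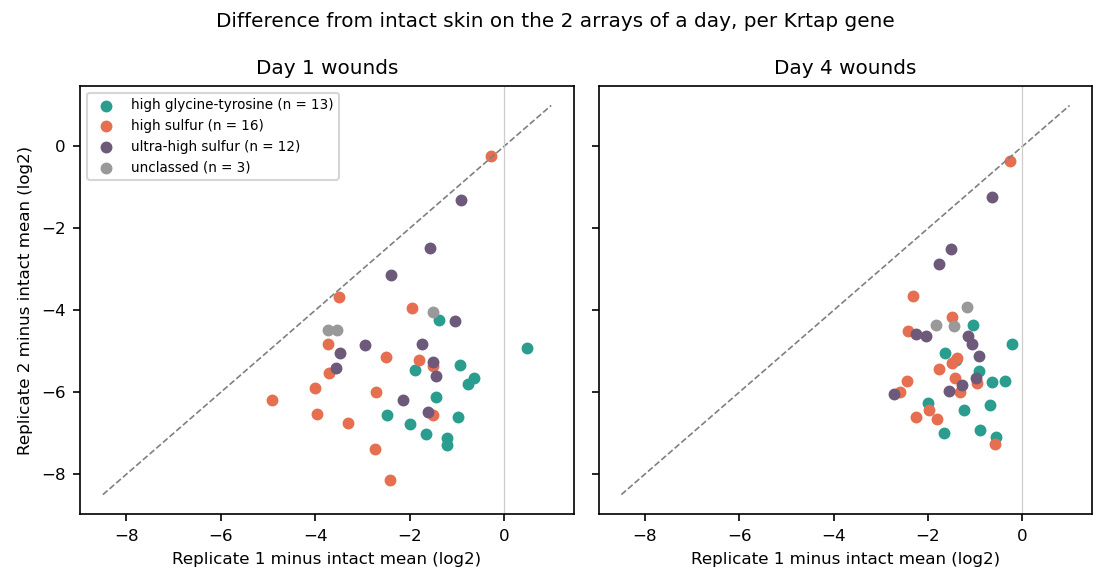
Difference from the intact mean on the log2 scale for each Krtap gene, with replicate 1 on the horizontal and replicate 2 on the vertical axis, for day 1 (left) and day 4 (right), coloured by protein class. Points below the dashed line of equal values were lower on replicate 2, which holds for 43 of 44 genes on day 1 and all 44 on day 4, and on day 1 the high glycine-tyrosine genes, with a median of −1.21 on replicate 1, lie mostly to the right.

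Protein classes were assigned from the subfamily number in human and sheep nomenclature, after values had been seen, and their order differed between the arrays numbered 1 and 2. On day 1 replicate 1 the median of the 13 high glycine-tyrosine genes was at 43.2% of the intact intensity, that of 12 ultra-high sulfur genes at 31.5% and that of 16 high sulfur genes at 15.1%. On day 1 replicate 2 the same medians were 1.44%, 3.25% and 1.91%. On that array the high glycine-tyrosine genes Krtap6-1, Krtap19-1, Krtap19-2, Krtap19-3, Krtap19-5 and Krtap19-9b lay under the lower quartile. The high sulfur genes Krtap13, Krtap13-1 and Krtap15 did too, and no ultra-high sulfur gene did. Signal in that range was not tested against background, so the order of the classes on replicate 2 is approximate. The 3 genes of Krtap16 and Krtap31 were left unclassed. With 2 arrays a group an exact permutation test of a single value cannot go below p = 0.333, so differences between subfamilies or classes are given as descriptions.

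On day 4 all 44 members again had a lower mean than intact skin, and on all 44 both wound arrays lay below both intact arrays, against 36% of all genes (30% of all genes were higher on both). The median log2 difference over the members was −3.36, with a range of −4.43 (Krtap13-1) to −0.31 (Krtap13), where the median over all genes was −0.03. Limma called 13 lower (29.5%), against 12.1% of all genes, and none higher. Of these, 12 were among those called on day 1, a comparison that uses the same intact arrays. Krtap10-4 (limma adjusted p = 0.062) and Krtap14 were called on day 1 alone. Krtap13, called on day 4 alone at a difference of −0.31 (limma adjusted p = 0.0349), is the member under the lower quartile on every array, and its call was lost whichever array was left out.

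The median on day 4 replicate 1 was at 37.4% of the intact intensity (log2 difference −1.42), and 31 members were more than 2-fold lower. On day 4 replicate 2 it was at 2.27% (log2 difference −5.46), and 43 members were more than 2-fold lower. Krtap13-1 had the largest mean difference on day 4 (−4.43, limma adjusted p = 0.117), followed by Krtap5-5 (−4.38, limma adjusted p = 0.0268) and Krtap19-5 (−4.33, limma adjusted p = 0.181). Krtap19-5 had 11.88 and 12.23 in intact skin, 10.40 and 5.04 in day 1 wounds and 10.39 and 5.06 in day 4 wounds.

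The day 4 count was 26 when replicate 1 of the day 4 wounds was left out, against 8.35% of all genes, and 6 when replicate 2 was, against 6.36%. It was 1 when intact replicate 1 was left out, against 4.28% of all genes, and 2 when intact replicate 2 was, against 4.8%. Without both wound arrays numbered 1 it was 42, against 3.45% of all genes. Without both numbered 2, limma called 0 of all 19938 genes in either direction, so its count of 0 members says nothing about the family. With a robust prior 5 members were called, against 12.3% of all genes. Krtap12-1 alone kept the day 4 call with any 1 array left out.

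Between day 4 and day 1 wounds limma called 0 members, with 0 at an unadjusted p under 0.05 and a lowest adjusted p of 0.452 (Krtap12-1), where 1.09% of all genes were called higher and 1.14% lower. Mean values were higher on day 4 for 37 members and lower for 7, with a median difference of 0.41, and the arrays of the 2 days overlapped for all 44, where 25.6% of all genes were higher and 22% lower on both arrays. The median turned to −1.39 when replicate 2 of the day 1 wounds was left out and to −1.60 when replicate 1 of the day 4 wounds was. With replicate 2 of the day 4 wounds left out it was 2.44, and 2 members were called higher, against 0.336% of all genes, Krtap12-1 (limma adjusted p = 0.0425) and Krtap31-1 (limma adjusted p = 0.0459).

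Set side by side by number, the day 4 arrays differed from the day 1 arrays in a way that varied by subfamily. On the arrays numbered 1, 39 members were higher on day 4 and 5 lower, with a median difference of 0.57, and 13 were at least 2-fold higher. On the arrays numbered 2, 31 were higher, 12 lower and 1 equal, with a median of 0.11 and none at least 2-fold higher. The largest day 4 minus day 1 differences on the arrays numbered 1 were 2.32 for Krtap24-1, 2.28 for Krtap31-1, 1.99 for Krtap14, 1.94 for Krtap10-4 and 1.84 for Krtap15. High sulfur genes had a median of 1.24, ultra-high sulfur genes 0.59 and high glycine-tyrosine genes 0.33, and Krtap6-3 (−0.72) and Krtap19-1 (−0.48) were lower on day 4. These values subtract day 1 replicate 1, where the same classes had medians of −2.73, −1.67 and −1.21 from the intact mean. On the arrays numbered 2 the class medians of day 4 minus day 1 were 0.09, 0.11 and 0.18, in the opposite order. Krtap4-6, at 10.14 and 10.11 in intact skin, 9.08 and 5.87 in day 1 wounds and 8.97 and 5.50 in day 4 wounds, was among the 7 members whose mean was lower on day 4. The labels do not state that samples with the same number are linked, so these are differences between single arrays.

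**Figure D4:**
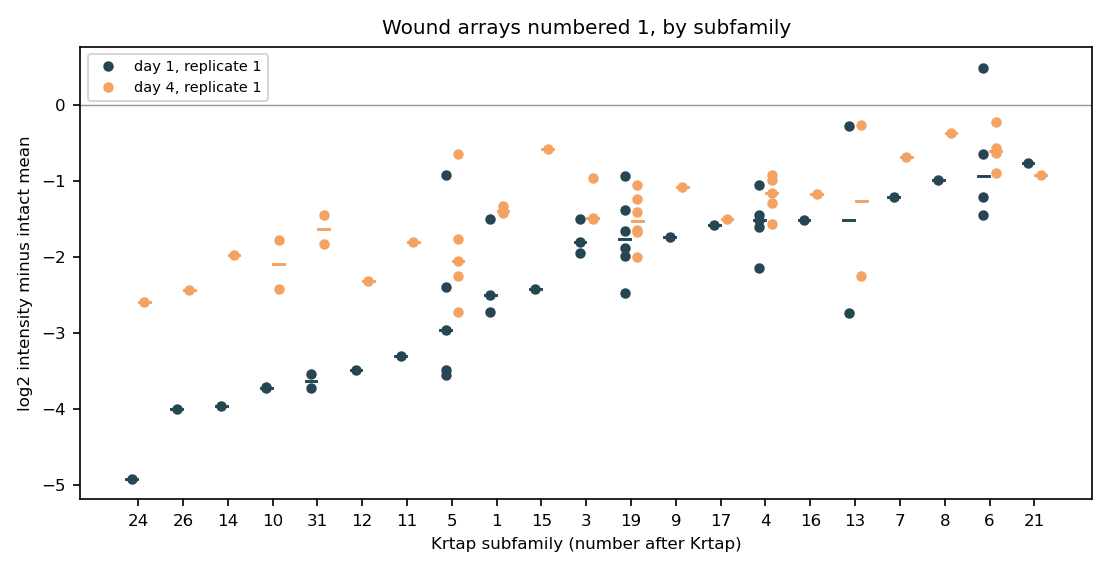
Difference from the intact mean on the log2 scale on the wound arrays numbered 1, for each Krtap gene (points) and the subfamily median (short lines), with day 1 dark and day 4 light. Subfamilies are ordered by their day 1 median, from 24 at −4.92 to 21 at −0.76, and on day 4 the same subfamilies lie between −2.60 and −0.37.

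Other genes of the growing follicle were set beside the family. Of all genes, 14.6% fell on day 1 and 12.1% on day 4. Of 12 measured hair shaft keratins, which form the filaments that these proteins bind, 8 fell on day 1 and 6 on day 4 and none rose, among them Krt32 (2 arrays at 5.79 and 5.50 in day 1 wounds, against 8.43 and 8.63 in intact skin), Krt82 and Krt40. Their median log2 difference from intact was −3.23 on day 1 replicate 1 and −4.21 on day 1 replicate 2. Of 9 inner root sheath genes, of the layer that moulds the shaft, 5 fell on day 1 and 1 on day 4 and none rose. The day 4 count was near the share of all genes, but all 9 had a lower mean than intact skin on day 4. Their day 4 log2 differences ran from −4.41 to −1.30. Medians of the list were −2.04 and −6.46 on the day 1 arrays and −1.12 and −5.83 on the day 4 arrays. Of 13 regulators and other shaft proteins 10 fell on day 1 and 8 on day 4 and none rose, including Lef1 (log2 difference −2.50 on day 1), the Wnt pathway factor that binds the CTTTGA core, Foxn1 (−2.68), a transcription factor needed for hair formation, and Dlx3 (−2.63). Hoxc13, a regulator of hair keratin genes, stood at 8.21 and 6.70 in day 1 wounds, against 10.28 and 10.26 in intact skin (limma adjusted p = 0.0144).

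Markers of other compartments differed less between the wound arrays numbered 1 and 2. The median of 8 interfollicular epidermis markers was 0.43 and 0.27 above intact on the 2 day 1 arrays and 0.34 and 0.48 on the day 4 arrays, and 4 rose and none fell on each day, where 14.7% of all genes rose on day 1 and 14.8% on day 4. Their summed log2 intensity was 95.94 to 96.74 in day 1 wounds and 96.39 to 97.40 in day 4 wounds, against 93.13 to 93.57 in intact skin. All 8 neutrophil markers rose on both days, with medians of 4.41 and 4.86 on the day 1 arrays and 3.67 and 3.95 on the day 4 arrays, and summed log2 intensity of 83.28 to 86.78 in day 1 wounds and 73.65 to 75.53 in day 4 wounds, against 46.90 to 47.87 in intact skin. All 7 melanocyte markers fell on day 1 and 4 on day 4, where 14.6% of all genes fell on day 1 and 12.1% on day 4. Summed values of these markers were 48.12 to 48.72 in day 1 wounds and 51.61 to 51.72 in day 4 wounds, against 56.30 to 62.88 in intact skin. The intact arrays differed in this list, with medians of 0.54 on replicate 1 and −0.54 on replicate 2 from the intact mean. Of 8 outer root sheath and bulge markers, 4 fell and 1 rose on day 1, and 4 fell and 2 rose on day 4. Their median log2 differences were −0.46 and −0.98 on the day 1 arrays. The part of these cell types in the Krtap differences was not tested.

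**Figure D5:**
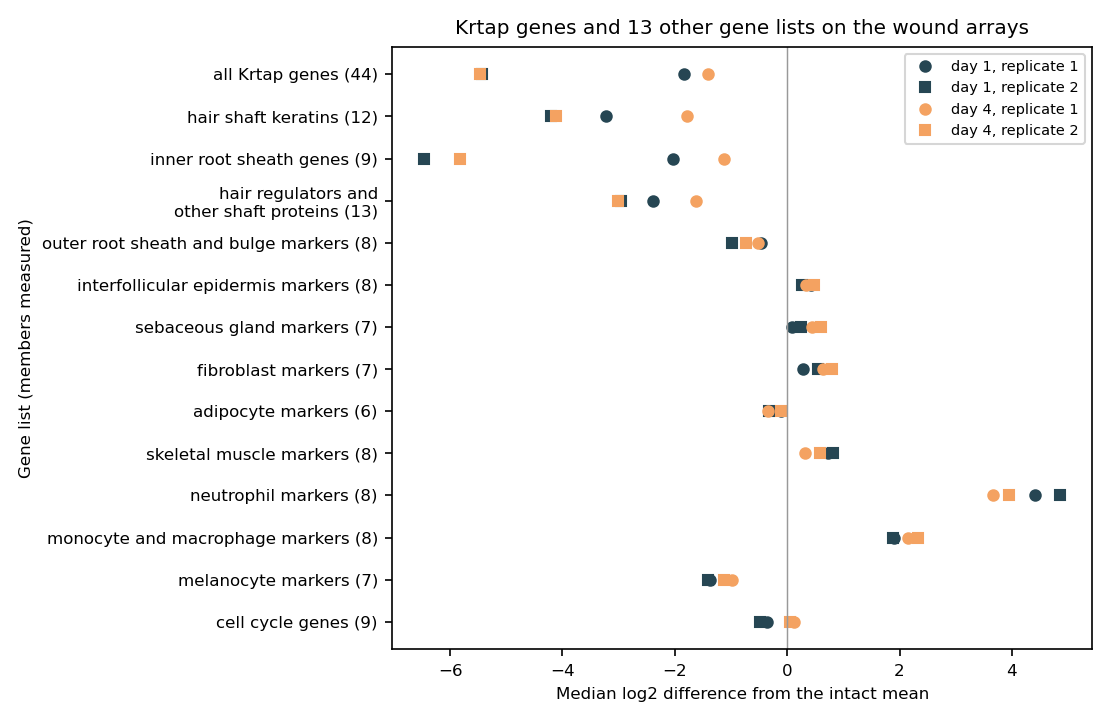
Median log2 difference from the intact mean for the 44 Krtap genes and 13 other gene lists (rows, with the number measured) on the 4 wound arrays, with circles for replicate 1, squares for replicate 2, dark for day 1 and light for day 4. The Krtap genes and inner root sheath genes show wide gaps between circles and squares, and the epidermis, macrophage and melanocyte lists show narrow ones.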

How the data were processed

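Skin biopsies of 6 samples were measured on Affymetrix arrays. The authors deposited 1 log2 intensity per probe set and array. The submitters' processing notes name RMA with no version, and there is no test of signal against background. The annotation gave 1 symbol to 21789 of 35556 probe sets and several to 1621, which stayed unused like the 12146 it does not list. The probe set with the highest mean over the 6 arrays was used per gene. All 44 Krtap symbols matched a RefSeq gene identifier (GRCm38.p6). Limma 3.58.1 in R 4.3.3 fitted a mean per group over all 19938 genes and 6 arrays (lmFit, eBayes, 3 residual and 3.4 prior degrees of freedom), with two-sided p-values adjusted by Benjamini-Hochberg over all genes of a comparison at a threshold of 0.05. The fit was tested on simulated data with noise drawn independently for each gene and array. Shifts shared by many genes of 1 array, as seen in the Krtap genes, were not simulated. A difference on 1 array is its value minus the mean of the intact arrays. The genes described in full are the brightest member of each subfamily, the 3 largest falls and rises of each comparison, and others singled out after their values were seen. Of the 13 other gene lists, values are given in the text for the hair, epidermis, neutrophil, melanocyte and outer root sheath lists and in the closing section for the rest. Members, lists and rules were chosen with earlier results of these data known. Protein sequences were not used here, so a planned class by composition was replaced by the subfamily number. Alternatives were other scalings, priors, probe set choices, a filter on the dimmest 30% of genes, the 2 groups compared alone, a replicate block and leaving out arrays.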

Additional observations from a re-analysis of the deposited data

Results flagged for a closer look

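A probe set shared by Krtap20-2, Gm6358 and Gm33888, which was not used for any comparison, had signal above intact skin on the wound arrays numbered 1. It stood at 12.85 and 8.03 in day 1 wounds and 12.67 and 8.30 in day 4 wounds, against 12.14 and 12.09 in intact skin. Human KRTAP20 belongs to the high glycine-tyrosine class. The other 14 shared probe sets that name a Krtap gene lay below both intact arrays on all 4 wound arrays.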

How the results depend on the processing

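Under each of quantile normalization, cyclic loess, median centring, a mean-variance trend, the 2 groups compared alone, removal of the dimmest 30%, the mean of a gene's probe sets and the added shared probe set, the counts of Krtap genes called stayed within 1.5 times the reported 14 on day 1, 13 on day 4 and 0 between the days. A robust prior gave 5 on day 1 and 5 on day 4, where 14.6% and 12.3% of all genes were called lower. Leaving out single arrays gave counts of 3 to 18 on day 1, 1 to 26 on day 4 and 0 to 2 between the days. The median log2 difference ran from −5.44 to −1.84 on day 1, from −5.46 to −1.42 on day 4 and from −1.60 to 2.44 between the days, where it turned to −1.39 without day 1 wound replicate 2 and to −1.60 without day 4 wound replicate 1. After seeing the data, both wound arrays of a number were left out. Without those numbered 2, 34 Krtap genes were called on day 1 (2.5% of all genes), with a median of −1.84. On day 4 that fit called 0 of all genes, so its 0 Krtap genes bear on nothing. Without those numbered 1, 43 were called on day 1 (5.61% of all genes) and 42 on day 4 (3.45%), with a day 4 median of −5.46. The replicate numbers are not linked across groups by the labels. Deviations of same-numbered arrays correlated at 0.685 over all genes between the wound groups, at 0.0139 between day 1 wounds and intact skin and at 0.0227 between day 4 wounds and intact skin. Without the Krtap members the same correlations were 0.544, 0.0368 and 0.0459. With the replicate block 25 Krtap genes were called on day 1, 23 on day 4 and 0 between the days. That fit called 14.5% of all genes lower on day 1 and 12.4% on day 4. Between the days it called 1.75% of all genes lower and 1.18% higher. The cause of these differences was not tested beyond the arrays that each fit leaves out. Levels under the lower quartile were not tested against background, which limits the size of falls on the arrays numbered 2.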

Other observations

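For other skin compartments, medians are log2 differences from the intact mean on wound replicates 1 and 2 of a day. Of all genes, 14.7% rose and 14.6% fell on day 1, and 14.8% rose and 12.1% fell on day 4. Of 8 monocyte and macrophage markers all rose on both days, with medians of 1.90 and 1.88 on day 1 and 2.15 and 2.34 on day 4. Of 8 skeletal muscle markers 7 rose on day 1 and 5 on day 4, with medians of 0.74 and 0.81 on day 1 and 0.33 and 0.59 on day 4. Of 7 fibroblast markers 4 rose on day 1 and 5 on day 4, with medians of 0.29 and 0.54 on day 1 and 0.63 and 0.80 on day 4. Of 7 sebaceous gland markers 2 rose and 1 fell on day 1, and 4 rose and 1 fell on day 4, with medians of 0.09 and 0.25 on day 1 and 0.44 and 0.60 on day 4. Of 6 adipocyte markers 2 fell on each day, with medians of −0.12 and −0.32 on day 1 and −0.35 and −0.11 on day 4. Of 9 cell cycle genes 6 fell on day 1, 2 rose on day 4, and 6 were higher on day 4 than on day 1. Their medians were −0.37 and −0.49 on day 1 and 0.13 and 0.06 on day 4.

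Krt84 and Krt36, both hair keratins, departed from the family on day 1 replicate 1. Krt84 stood at 10.02 and 5.57 in day 1 wounds and 7.53 and 5.64 in day 4 wounds, against 9.78 and 9.66 in intact skin. Krt36 stood at 8.98 and 5.50 in day 1 wounds and 6.72 and 6.08 in day 4 wounds, against 7.72 and 8.04 in intact skin. On day 1 replicate 1 both were above intact skin, where 43 of 44 Krtap genes were below the intact mean. Both were singled out after their values were seen.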
